A study of Mus musculus with 54 samples.

Results

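The libraries described here came from LIN28A+ segments of seminiferous tubules that held only spermatogonia (Spg-only) in testes of Cbfb conditional knockout (cKO) mice at postnatal day 21 (P21). They were chosen by their GEO titles: 3 Spg-only regions of 54 libraries in the series, set against the 6 P21 LIN28A+ Control libraries, which are circular regions on 3 sections from each of 2 animals. Expression was measured with the NanoString GeoMx whole transcriptome atlas, in which photocleaved tags of probes hybridized to a tissue section are collected from the fluorescently stained part of a chosen region and counted by sequencing. LIN28A, an RNA-binding protein, and DDX4, a germ cell RNA helicase, were the stains, and a LIN28A+ segment is the area inside a region that carried the LIN28A signal. The cKO males carried floxed Cbfb with Blimp1-Cre, which is active in the germline from early in embryonic development and has also been reported in some somatic tissues. The controls were heterozygous males of the same age, so they too carried a Cbfb alteration. Also used were 6 cKO LIN28A+ libraries from circular regions placed at random on a section each (random-region cKO), 3 from each of 2 animals. Their 6 LIN28A- partners hold the DDX4+ germ cells without LIN28A signal inside the same circles. Further libraries were the LIN28A+ and LIN28A- segments of 4 cKO regions (Diff), drawn on tubules where spermatocyte or spermatid maturation looked disrupted or incomplete. The animals of the Spg-only and Diff regions are not given. At most 2 cKO animals can stand behind the 3 Spg-only regions, so regions share an animal and every p-value over regions given here is too small.

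Spermatogonia are the mitotic germ cells at the base of the tubule. A small self-renewing pool among them feeds progenitors, which differentiate, enter meiosis and move towards the lumen as spermatocytes and spermatids. LIN28A marks mainly the undifferentiated spermatogonia. CBFB is the partner subunit that the RUNX transcription factors need for stable DNA binding. In a Spg-only tubule the later germ cell layers are missing from the section. The comparison with Control sets LIN28A+ cells of such cKO tubules beside LIN28A+ cells of heterozygous testes in which spermatogenesis proceeds. Genotype, animal and tubule type change together in it, so they cannot be told apart.

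Each probe is known only by its readout identifier. None of the 20175 identifiers matched an entry of the mouse gene tables used here (0 matches), so no gene is named, and neither Cbfb nor the stained proteins Lin28a and Ddx4 could be checked at the RNA level. What the sequencer read for a probe is a 12-base tag, which is a barcode attached to the probe and not a stretch of the transcript. The tags of the 4 probes that the comparison with Control turns on are printed here because the tag and the identifier are the only identity the files give them. No letters are in capitals, since no part of a barcode carries more meaning than another.
RTS0068460: atcacctggctt
RTS0068362: tgagagcgttag
RTS0076528: aatccgaggtac
RTS0064996: ggaggtgagtct

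The Spg-only segments were smaller than every Control segment. They covered 3555, 1670 and 3366 µm² in regions 1, 2 and 3, a mean of 2864 ± 1038 (SD, n = 3), against 9308 ± 2689 (SD, n = 6) in Control, where the range was 6432 to 13576 and the groups did not overlap. Their libraries held 131832, 76337 and 178737 counts, and the Control libraries held 189280 to 721322. Counts per µm² were 37.1, 45.7 and 53.1 in the 3 Spg-only regions (mean 45.3 ± 8.01, SD) against 44.6 ± 13.3 (SD, n = 6) in Control, a difference of 0.737 with an exact two-sided permutation p of 0.976. The ranges of counts per area overlapped, while those of area did not. Area and total counts each differed from Control with an exact permutation p of 0.0238 over libraries (0.0476 after Benjamini-Hochberg adjustment over 12 measures), which is the smallest that 3 against 6 libraries allow, and with a p of 0.2 over the 2 control animals, the smallest that 3 against 2 allow. The study drew the Spg-only regions around tubule cross-sections and the Control regions as randomly placed circles. Area, and total counts with it, thus depended on how regions were drawn, and these p-values do not measure a difference between the cells. A single count in Spg-only region 2 is worth a large step in CPM (counts per 1000000 counts of all probes): the limit that a count of 0 allows (3 counts) is 39.3 CPM there, 22.8 in region 1 and 16.8 in region 3, counting error only.

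The Spg-only profiles were flatter than those of Control. The most abundant 1% of probes took 8.32, 9.33 and 9.70% of all counts in regions 1, 2 and 3, against 12.0 ± 0.236% (SD, n = 3 sections) in control animal 1 and 10.7 ± 0.566% in control animal 2. The 3 Spg-only libraries lay below all 6 Control libraries. When every library was thinned to 76337 counts, the total of the smallest one, the shares were 9.20 ± 0.721% (SD, n = 3) and 11.5 ± 0.813% (SD, n = 6), again without overlap. The exact permutation p for the thinned share was 0.0238 over libraries (adjusted 0.0476) and 0.2 over the 2 control animals, in both cases the smallest possible. At that equal depth 19278 ± 39.9 (SD, n = 3) probes had a count in Spg-only and 18979 ± 194 (SD, n = 6) in Control, so the counts of a Spg-only library were also spread over more probes, and the groups did not overlap. Counts spread evenly over all probes would give 49.6 CPM each. No level of non-specific probe signal was estimated, so its part in these counts, and in the flatter profile, was not tested. The Diff regions lay between, with thinned top-probe shares of 9.46 to 10.5% that overlapped those of Spg-only, and random-region cKO ranged from 9.89 to 11.6%. Segment area was also smaller in Spg-only than in Control, and its part in the flatter profile was not tested. In control animal 1 the thinned share was 11.78, 12.29 and 12.30% at 6432, 11150 and 13576 µm². In control animal 2 it was 10.20, 10.96 and 11.47% at 7286, 7848 and 9557 µm². The share thus rose with area within both control animals. Random-region cKO had 11.23, 10.78 and 10.90% at 3415, 4972 and 8351 µm² in animal 1. In cKO animal 2 the values were 9.89, 11.61 and 10.88% at 9135, 9416 and 13682 µm². The share did not rise steadily with area in either cKO animal.

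**Figure D1:**
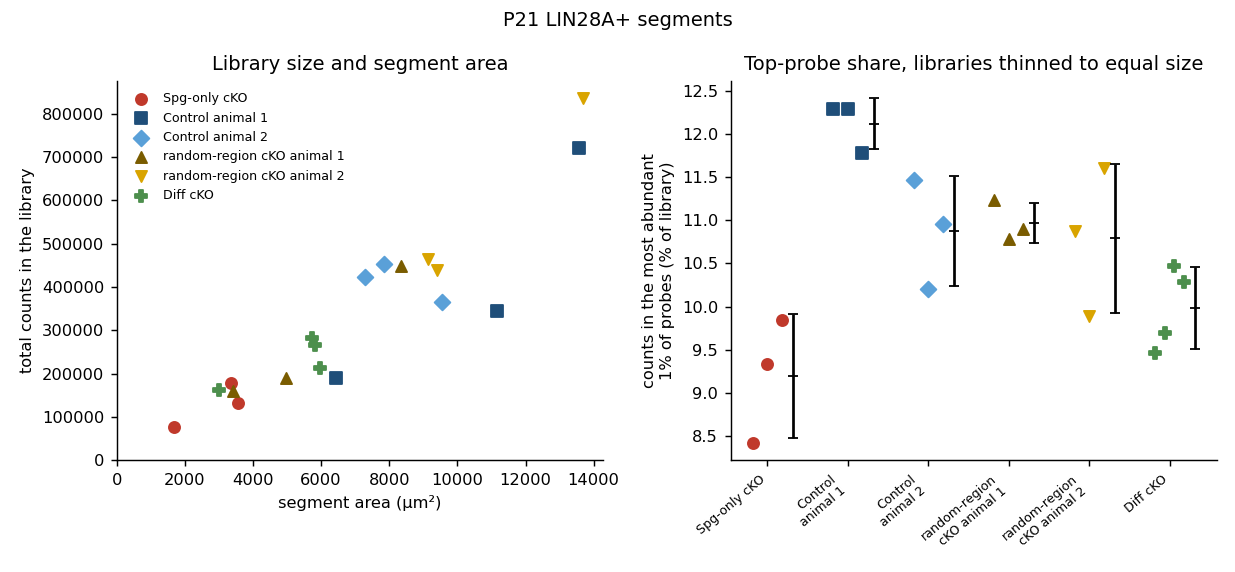
Left, total counts of each P21 LIN28A+ library against the area of its segment in µm². Right, the percentage of counts in the most abundant 1% of probes after thinning every library to 76337 counts, with the mean and SD beside the points of each group; symbols mark groups and animals, and the 3 Spg-only libraries lie below the 6 Control libraries in both panels.

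The same flattening was seen probe by probe. All 20175 probes were ranked by their mean CPM in the 6 random-region cKO LIN28A+ libraries, which belong to neither group, and divided into 5 bins of 4035 probes. In the lowest bin the median log2 fold change of Spg-only against Control was 0.14, and 38.8% of probes were lower in Spg-only. In the highest bin (from 54.5 CPM) the median fell to -0.27 and 73.5% of probes were lower. Among the 202 most abundant probes, those of at least 180 CPM, the median was -0.53 and 183 were lower in Spg-only; 69 had an unadjusted p under 0.05 in the lower direction and 1 in the higher direction, beside 713 lower (3.53%) and 615 higher (3.05%) of all 20175. Together these 202 probes took 8.80 ± 0.766% (SD, n = 3) of Spg-only counts and 11.1 ± 0.721% (SD, n = 6) of Control counts, with ranges of 7.96 to 9.47% and 9.99 to 11.9%. TMM factors centre the bulk of the probes, so these fold changes are relative to the other probes, while the shares of counts do not depend on them.

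**Figure D2:**
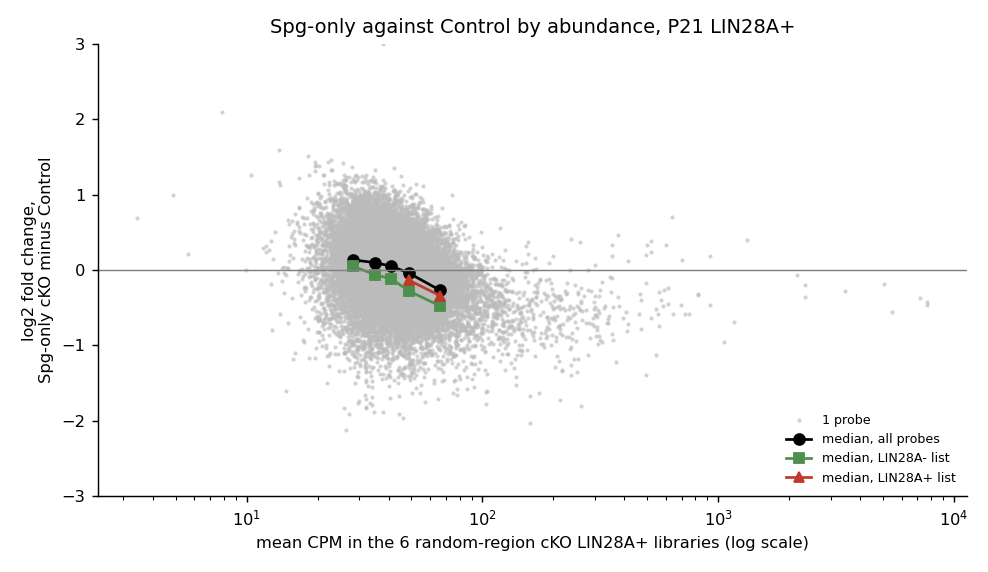
Log2 fold change of Spg-only cKO against Control for 20175 probes (grey; 1 lies beyond the axis), against mean CPM in the 6 random-region cKO LIN28A+ libraries on a log scale, with the medians of 5 equal bins for all probes and for the lists of probes higher in LIN28A- or in LIN28A+ segments (bins with at least 20 list members). The median of all probes moves from 0.14 in the lowest bin to -0.27 in the highest.

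Against Control, 18 of 5850 probes that passed the low-count filter differed at an adjusted p under 0.05 (edgeR quasi-likelihood test, 3 Spg-only regions against 2 control animals), which is 0.308% of those tested. Of these, 1 was higher (0.0171%) and 17 were lower in Spg-only (0.291%), with log2 fold changes of the latter between -1.91 and -1.26. At an unadjusted p under 0.05 there were 707 probes (12.1%), 284 higher (4.85%) and 423 lower (7.23%). No probe of the 5850 moved by more than 2 on the log2 scale, while 97 were higher (1.66%) and 127 lower (2.17%) by more than 1. The filter lets a low probe in if it is high in any pair of samples, and the Spg-only libraries are shallow. With the filter set on the mean over the 9 libraries (at least 50 CPM, an alternative chosen after seeing the data), 5590 probes were tested and 5 were called, 2 higher and 3 lower. DESeq2 called 0 of the 5850, with 288 at an unadjusted p under 0.05.

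Control animal 1 lay farther from the Spg-only regions than control animal 2. The 17 lower probes were below every section of animal 1 in all 3 regions, and 12 of them were below every section of animal 2. Over all 5850 tested probes these numbers were 905 (15.5%) and 439 (7.50%). The 17 were called against these same sections, which favours such counts. The median log2 ratio of Spg-only to Control over the 17 was -1.75 against animal 1 and -0.94 against animal 2. Of the 17, 16 were higher in animal 1 than in animal 2, and the median log2 ratio between the animals was 0.82. Without control animal 1 the test called 2 probes, and without control animal 2 it called 169, 19 higher and 150 lower; either fit leaves 1 Control sample, so its spread comes from the 3 regions alone and that sample is assumed to vary like them. Pooling the regions and each animal to 386906 counts gave the same order over the 5447 probes with a mean of at least 50 CPM. More than 2-fold differences from animal 1 were seen for 108 probes that were higher (1.98%) and 327 that were lower in Spg-only (6%), and from animal 2 for 89 higher (1.63%) and 85 lower (1.56%). The 2 control animals differed from each other by more than 2-fold at 184 probes higher in animal 1 (3.38%) and 60 higher in animal 2 (1.1%). The SD of the log2 ratios was 0.56 for Spg-only against animal 1, 0.46 against animal 2 and 0.48 between both control animals, so that the pooled Spg-only profile was no farther from control animal 2 than the control animals were from each other.

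RTS0068460 had the smallest p among the lower probes, and it depended on which control animal was used. Its CPM was 106, 91.7 and 302 in Spg-only regions 1, 2 and 3, 835, 1435 and 1199 in the sections of control animal 1, and 244, 563 and 152 in those of control animal 2. All 3 regions were below animal 1, and region 3 lay within the range of animal 2. The log2 fold change was -1.91 (SE 0.30, adjusted p = 1.36e-06), which is 3.77-fold lower. It was -0.86 (adjusted p = 0.41) without control animal 1, and limma-voom with a random effect of the animal gave -1.71 and no call (adjusted p = 0.22). Against random-region cKO the log2 difference was 0.01 (SE 0.24, adjusted p = 0.99), with random-region values of 43.7 to 343 CPM and Diff values of 30.0 to 94.3 CPM. The values of Spg-only, random-region cKO and Diff overlapped for RTS0068460. RTS0068462, named after its values were seen, followed it: over the 19 LIN28A+ libraries used, Spearman's rho between both probes was 0.89 and Pearson's r of log2(CPM + 1) was 0.93, as a description over libraries that share animals. Its Spg-only values were 75.9, 52.4 and 213 CPM, against 345 to 688 in control animal 1 and 77.3 to 305 in control animal 2.

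RTS0068362, the second of the lower probes, separated Spg-only from both control animals. It stood at 91.0, 131 and 72.7 CPM in the Spg-only regions, at 481, 433 and 264 in control animal 1 and at 200, 161 and 179 in control animal 2. The highest Spg-only region was below the lowest Control section. The log2 fold change was -1.73 (SE 0.34, adjusted p = 0.00153), or 3.32-fold lower, from 12, 10 and 13 counts in the 3 regions. The call was lost without Spg-only region 1 (-1.72, adjusted p = 0.14), without region 3 (-1.54, adjusted p = 0.30), without control animal 1 (-1.05, adjusted p = 0.41) and after thinning to the smallest library (-1.29, adjusted p = 0.33). Unlike RTS0068460, it was also lower than in random-region cKO (154 to 393 CPM), by -1.41 on the log2 scale (SE 0.28, adjusted p = 0.000957), while the Diff regions ranged from 71.3 to 292 CPM and overlapped Spg-only.

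RTS0076528 was the single probe called higher than in Control. RTS0076528 passed the low-count filter only through the Spg-only regions, where it is high, so the filter favoured this direction in advance. Its CPM was 98.6, 65.5 and 123 in the Spg-only regions, 30.5, 55.2 and 31.7 in control animal 1 and 19.2, 59.1 and 35.3 in control animal 2. Each Spg-only region exceeded every Control section, and the 2 control animals were alike in mean, at 39.1 and 37.9 CPM. The log2 fold change was 1.40 (SE 0.33, adjusted p = 0.0190), or 2.65-fold higher. It rested on 13, 5 and 22 counts, and thinned to the smallest library it was 0.90 with an adjusted p of 0.60. The call was also lost without Spg-only region 1 (adjusted p = 0.30), without region 3 (0.44) and without control animal 1 (0.21). The random-region cKO libraries stood at 33.4 to 59.1 CPM, below every Spg-only region (log2 difference 1.19, SE 0.31, adjusted p = 0.0335).

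RTS0064996 came next among the higher probes and did not pass the threshold. RTS0064996 too passed the low-count filter only through the Spg-only regions. It was measured at 114, 78.6 and 101 CPM in Spg-only, at 26.4 to 49.4 in control animal 1 and at 35.6 to 59.6 in control animal 2. The groups did not overlap, and the log2 fold change was 1.19 (SE 0.32, adjusted p = 0.0551). It passed without control animal 2 (1.40, adjusted p = 0.0140) and with each library as its own replicate (adjusted p = 0.0455). Diff regions had 37.3 to 48.8 CPM, also below all Spg-only regions.

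**Figure D3:**
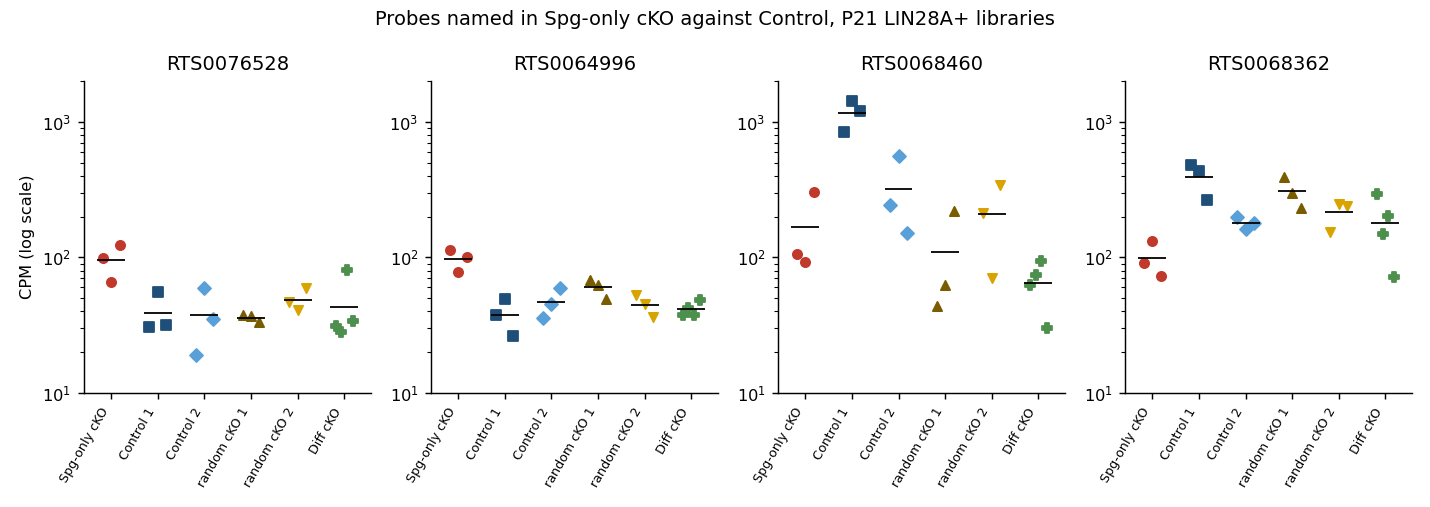
CPM on a log scale of the 4 probes named in Spg-only cKO against Control, 1 point per P21 LIN28A+ library, with the mean of each group or animal as a line. RTS0076528 and RTS0064996 lie higher in the 3 Spg-only regions than in all 6 Control sections, RTS0068362 lies lower, and RTS0068460 overlaps control animal 2.

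Complete separation of the 3 Spg-only regions from the 6 Control sections was found at 336 tested probes that were higher in Spg-only (5.74%) and 319 that were lower (5.45%). At equal depth, after thinning, the numbers were 107 (1.83%) and 75 (1.28%) of the same 5850 probes. Most of the separations seen at full depth were therefore not seen when all libraries held 76337 counts. Over all 20175 probes the shares were 3.63% and 2.84% as deposited, and 1.02% and 0.669% after thinning. Of the 84 ways to split the libraries into 3 and 6, 1 gives such a separation in each direction. That count takes the libraries as exchangeable, but sections and regions share animals, so it gives no chance rate for these shares. A probe could also pass the filter through the Spg-only regions alone, which favours higher separations among tested probes.

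The Spg-only regions were next compared with random-region cKO, which asks whether their LIN28A+ cells differ from LIN28A+ cells of cKO regions not chosen by tubule type, and which is also the test of the difference between both groups' distances from Control. Of 5871 probes, 18 differed at an adjusted p under 0.05 (edgeR, 3 regions against 2 cKO animals; 0.307% of those tested), 4 higher (0.0681%) and 14 lower (0.238%). Unadjusted, 623 probes passed 0.05 (10.6%), 278 higher (4.74%) and 345 lower (5.88%), and 41 were higher (0.698%) and 71 lower (1.21%) by more than 1 on the log2 scale. The 3 regions lay above all 6 random-region libraries at 307 probes (5.23%) and below them at 268 (4.56%). After thinning these numbers were 103 (1.75%) and 68 (1.16%). Of the 14 lower probes, 12 were below all 6 random-region libraries in all 3 regions, and of the 4 higher probes 3 were above them. With the mean of 50 CPM as the filter the test called 8 of 5675, 4 in each direction, and DESeq2 called 2 of 5871 (251 at an unadjusted p under 0.05).

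RTS0068405 was the lower probe with the smallest p. It stood at 182, 393 and 145 CPM in the Spg-only regions and at 388 to 705 in the random-region libraries, so that region 2 overlapped them. The log2 fold change was -1.29 (SE 0.24, adjusted p = 0.000755), and it was -1.02 without Spg-only region 3 (adjusted p = 0.28). Against Control the same probe had a log2 fold change of -1.06 (SE 0.30, adjusted p = 0.0780). Control animal 2 ranged from 234 to 348 CPM and overlapped Spg-only, and control animal 1 ranged from 507 to 692.

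RTS0081052 differed between the 2 animals of each genotype. In random-region cKO it had 287, 352 and 378 CPM in animal 1 and 87.2, 81.6 and 95.4 in animal 2, and in Control it had 347, 375 and 391 in animal 1 and 82.2, 109 and 90.5 in animal 2. The Spg-only regions, at 75.9, 91.7 and 61.5 CPM, and the Diff regions, at 67.1 to 113 CPM, all lay at the lower of these levels. The log2 fold change against random-region cKO was -1.54 (SE 0.30, adjusted p = 0.000911), and without cKO animal 1 it was -0.34 (adjusted p = 0.82). With the animal as a random effect in limma-voom it was -1.15 (adjusted p = 0.23). Against Control it was -1.63 (SE 0.36, adjusted p = 0.00911), and the mean of control animal 2, at 93.8 CPM, was close to that of Spg-only, at 76.4 CPM. Which animals the regions came from is not given, so animal and tubule type cannot be told apart for this probe.

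The 4 probes higher than in random-region cKO rested on 5 to 27 counts in each region. All 4 passed the low-count filter only through the Spg-only regions, where they are high, so the filter favoured this direction in advance. RTS0064911 had 75.9, 65.5 and 151 CPM in Spg-only and 31.5 to 48.9 in random-region cKO, a log2 fold change of 1.36 (SE 0.31, adjusted p = 0.00907) that dropped to 0.74 (adjusted p = 0.60) without region 3. Control ranged from 27.4 to 118 CPM for this probe and overlapped both groups. RTS0074099 had 106, 196 and 55.9 CPM in Spg-only and 25.0 to 57.8 in random-region cKO, so region 3 overlapped (log2 fold change 1.40, SE 0.34, adjusted p = 0.0180). Its adjusted p rose to between 0.06 and 0.42 whichever Spg-only region or cKO animal was left out. The other two were RTS0076528, described above, and RTS0075133, named because the count was small, which had 106, 91.7 and 123 CPM in Spg-only and 26.3 to 53.7 in random-region cKO (log2 fold change 1.19, SE 0.29, adjusted p = 0.0185). Control, at 38.8 to 79.2 CPM, lay below Spg-only for RTS0075133 too, though not past the threshold (0.79, SE 0.31, adjusted p = 0.30).

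**Figure D4:**
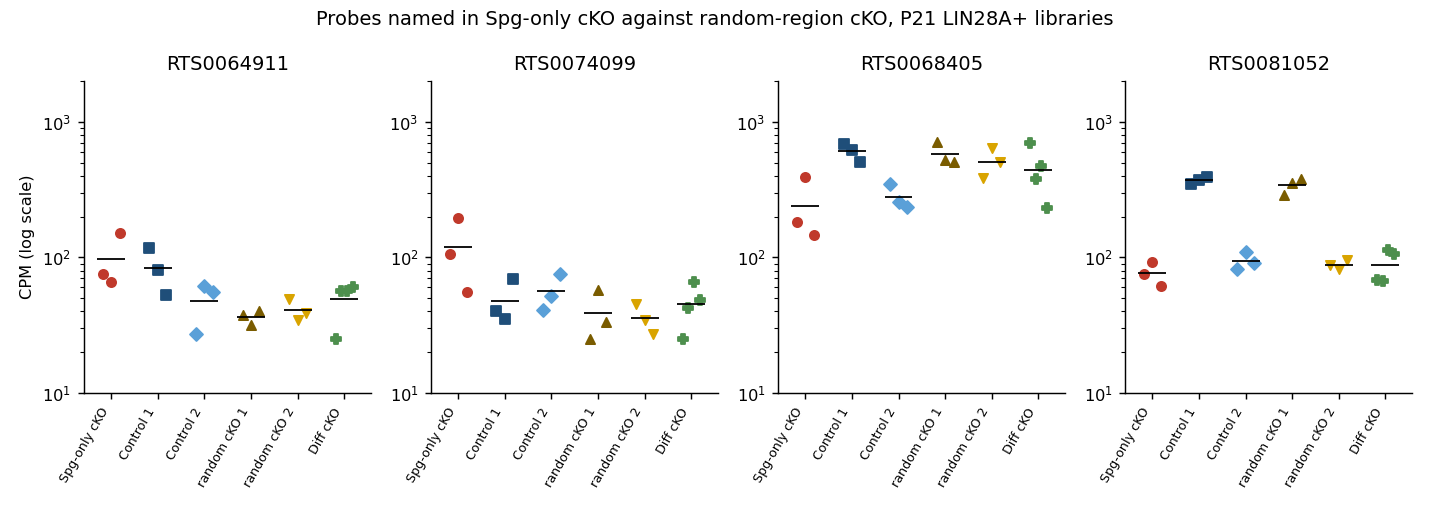
CPM on a log scale of the 4 probes named in Spg-only cKO against random-region cKO, 1 point per P21 LIN28A+ library, with the mean of each group or animal as a line. RTS0081052 has a high level in animal 1 and a low level in animal 2 of both genotypes, and the Spg-only and Diff regions lie at the low level.

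The 2 kinds of segment provided probe lists by which Spg-only could be described without gene names. In the random-region cKO libraries, LIN28A- segments differed from the LIN28A+ segments of the same regions at 1607 probes (edgeR, adjusted p under 0.05, section as a block), of which 958 were higher in LIN28A- and 649 higher in LIN28A+. The lists stand for LIN28A- and LIN28A+ germ cells of cKO testes, and their libraries include neither Spg-only nor Control. Of the LIN28A- list, 576 members passed the filter in Spg-only against Control; their median log2 fold change was -0.34, 439 (76.2%) were lower, 114 were lower and 5 higher at an unadjusted p under 0.05, and 6 were called, all lower. Of the LIN28A+ list, 462 members passed; their median was -0.27, 355 (76.8%) were lower, 75 were lower and 3 higher at an unadjusted p under 0.05, and 6 were called, again all lower. Over all 5850 probes tested the median was -0.02, 51.1% were lower, 423 (7.23%) were lower and 284 (4.85%) higher at an unadjusted p under 0.05, and 17 lower and 1 higher were called. With no filter, all 958 and 649 members gave medians of -0.30 for each list, against 0.00 for all probes.

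The medians of both lists were below 0, with few members called. Of the LIN28A- list 398 of 958, and of the LIN28A+ list 538 of 649, lay in the highest of the 5 bins of abundance. The bins were ranked in the random-region cKO LIN28A+ libraries, which also chose the lists as higher or lower there. Part of this placement is therefore set by the selection, and comparisons within a bin carry the same limit. Within that bin the median log2 fold change was -0.48 for the LIN28A- list and -0.34 for the LIN28A+ list, beside -0.27 for all 4035 probes there. The LIN28A- list took 5.21, 5.82 and 5.33% of counts in the Spg-only regions, 6.68 to 7.30% in control animal 1 and 6.09 to 6.30% in control animal 2, and Spg-only lay below all Control sections. In the 4 Diff regions the share was 5.61 to 5.74% and in random-region cKO 5.53 to 5.95%, which overlapped Spg-only. The LIN28A+ list took 5.66, 6.12 and 5.85% in Spg-only, 8.44 to 8.61% in control animal 1 and 5.97 to 6.39% in control animal 2, so that Spg-only lay well below animal 1 and overlapped animal 2. Accordingly the median log2 fold change of this list was -0.08 without control animal 1 and -0.42 without control animal 2. In the Diff regions 60 probes differed between segments; of the 45 higher in LIN28A-, 40 were tested in Spg-only against Control and 39 were lower (median -0.78), and of the 15 higher in LIN28A+, 12 were tested and 10 were lower (median -0.77).

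The 3 Spg-only regions resembled one another less than the sections of a single animal did. At equal depth, chi-square per degree of freedom over all probes, which is 1 when libraries differ by counting error alone, was 1.02 to 1.05 for the 3 pairs of Spg-only regions, 1.00 to 1.01 for the 6 pairs of sections of the same control animal and at most 1.01 for the 6 pairs of Diff regions. Between sections of different control animals it was 1.05 to 1.09, and between sections of different cKO animals 1.01 to 1.03. The latter range overlapped that of the pairs of Spg-only regions, whose animals are not given. Spg-only regions stood at 1.10 to 1.18 from control animal 1, 1.02 to 1.08 from control animal 2, 1.03 to 1.10 from cKO animal 1, 1.01 to 1.07 from cKO animal 2 and 1.01 to 1.04 from the Diff regions. Distances from control animal 2, both cKO animals and the Diff regions therefore overlapped the distances among the Spg-only regions themselves, and those from control animal 1 did not.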

How the data were processed

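P21 testis sections were profiled with NanoString GeoMx. The authors deposited, for each segment, counts of deduplicated probe tags per readout identifier, made with GeoMx NGS Pipeline 2.3.3.10; no genome alignment was involved, tag matching allowed 1 mismatch, and the counts are not normalized. The deposited segment list also gives a size per segment (unit "other" here, with no heading), read as µm² because the largest, 136932, is below the 282743 µm² of a circle of 600 µm diameter; 12 of its 47 segments have no sample here. The study's segments were set to hold at least 50 nuclei.

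Of 54 libraries, 29 were used. Library totals are the depth, and intervals and floors cover counting error only. CPM (per 1000000 counts) was computed over all 20175 probes. Sections of 1 animal were summed, and Spg-only regions (n = 3) were compared with animal sums (n = 2) by edgeR 4.0.16 (R 4.3.3; quasi-likelihood test, TMM factors, filterByExpr with a minimum count of 10, Benjamini-Hochberg adjustment). Separate regions of an animal are not independent, so p-values measure partly the spread within an animal. DESeq2 1.42.0 and limma 3.58.1 served as alternatives, and all alternatives other than the filters used the probes of the full fit. The no-filter fit covered 20175 probes. Library measures were tested with exact permutation tests. Libraries were thinned without replacement to 76337 counts. Named probes are the 2 with the smallest p in each direction of each comparison; exceptions are stated. The members and lists were chosen with earlier results of these data known. No gene list was described, since identifiers were not linked to genes. Sections 2 and 3 of control animal 1 did not differ beyond sampling noise (full-depth chi-square 1.01 per degree of freedom, p = 0.282), had different areas, and entered the fit within 1 sum; they count as separate libraries only in the permutation tests over libraries.

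On simulated counts for the comparison with Control, 16 of 100 probes planted at a log2 change of 1 and 79 of 100 at 2 were recovered. There were 7 false calls, with 5850 probes tested, planted ones included. For random-region cKO these were 38, 80 and 4, with 5871 tested. The simulated samples were drawn independently at the fitted spread. They therefore do not give the recovery or false-call rate for regions that share an animal.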

Additional observations from a re-analysis of the deposited data

Results flagged for a closer look

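In 48 sets of 4 to 6 libraries tested for a value far from the others by Dixon's ratio, 4 were flagged, where chance flags about 1 in 20. RTS0075133 was low in section 1 of control animal 1, at 38.8 CPM, with the next lowest Control section at 66.3. RTS0076528, the probe called higher in Spg-only than in Control, was high in Diff region 3, at 80.2 CPM, with the next Diff region at 33.8 and the Spg-only regions from 65.5 to 123. RTS0064911 was low in Diff region 1, at 24.8 CPM, with the next at 56.5. The area of that same Diff region, 3003 µm², was small beside the next, 5736 µm², and was within the range of the Spg-only segments (1670 to 3555 µm²).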

How the results depend on the processing

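For Spg-only against Control (18 probes called), DESeq2 called 0, upper-quartile factors 54, no filter 2 of 20175, thinning to the smallest library 1, each library as its own replicate 31, limma-voom (animal as random effect) 10, the regions summed to 1 sample 0, a mean CPM filter 5, and thinning with the filter recomputed 5 of 460. Leaving out an animal leaves that arm with 1 sample. Leaving out 1 region or animal gave 1 to 169 (2 and 169 with a lone control animal, assumed to vary like the regions), or 0 to 219 with the filter recomputed. For Spg-only against random-region cKO (18 called), these were 2, 40, 5 and 2, then 86 with limma-voom, 8 with the mean CPM filter and 0 of 404 with thinning and the filter recomputed, and leaving out 1 region or animal gave 0 to 25 either way (11 without region 2 and with the filter recomputed). Without Spg-only region 3 this comparison lost every call (0), with 541 probes at an unadjusted p under 0.05. In limma-voom the estimated correlation within an animal was -0.0725 for random-region cKO and 0.0791 for Control. A value below 0 does not widen the errors for shared animals, and each Spg-only region entered as its own animal. Upper-quartile factors moved the median of all probes against Control to -0.12 and the split at an unadjusted p under 0.05 to 131 higher and 651 lower, and limma-voom turned it to 396 higher and 323 lower, against 284 and 423; against random-region cKO these were 94 and 680, and 548 and 435, against 278 and 345. The segment comparison called 1607 probes with the section as a replicate block, 1518 with no replicate block and 60 in the Diff segments. No paired analysis was possible because the numbers of the Spg-only regions name regions and not animals, so the comparisons of Spg-only have no pairs. The list medians were -0.44 (LIN28A-) and -0.37 (LIN28A+) with upper-quartile factors, and -0.38 to -0.30 and -0.42 to -0.083 with 1 region or animal left out. Thinning reversed 3 library measures of Spg-only minus Control. Probes with a count went from -350.0 to 298 and the SD of log2 CPM from 0.09 to -0.065. The percentage of probes within 2-fold of the library's median CPM went from -4.11 to 3.88. The top-probe share stayed at -2.23 and -2.30 percentage points. Tested probes without overlap between Spg-only and Control numbered 336 (5.74%) and 319 (5.45%) as deposited. After thinning they numbered 107 (1.83%) and 75 (1.28%). No named probe changed direction in any of its 19 or 20 alternatives. The cause of these shifts was not tested. Depth limits the comparison: regions hold 76337 to 178737 counts over 20175 probes.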
